A study of Mus musculus with 15 samples.

Results

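Epithelial and mesenchymal identity genes were examined in chromatin accessibility data from monolayer cultures of 6DT1, a line of mouse mammary cancer cells. The 7 genes were the epithelial genes *Cdh1*, *Epcam*, *Krt8*, *Krt18* and *Krt19* and the mesenchymal genes *Vim* and *Fn1*. Their members were all listed regions that overlap 1 interval of the mouse build mm39 per gene, which left 15 of 44598 regions in the table deposited for the knockdown comparison (KD table) and 12 of 38036 regions in the table for the overexpression comparison (OE table). Of the 7 genes, 5 had at least 1 region, and *Cdh1* and *Epcam* had 0 in both tables. In ATAC-seq a transposase cuts accessible DNA and tags the ends for sequencing. The 15 libraries comprised 3 of cells that overexpress *Smarcd1* (OE), 3 of their empty vector control (EV), 3 of each *Smarcd1* knockdown line (KD4 and KD6) and 3 of the scramble control (Scr). *Smarcd1* encodes a subunit of the BAF chromatin-remodeling complex. The lines were made by viral transduction, with puromycin selection for the short hairpin RNA lines KD4, KD6 and Scr and blasticidin selection for OE and EV, so the vector, the selection agent and the set of lines cannot be told apart between EV and Scr. The labels do not say which hairpin is in KD4 or KD6, or whether a line is 1 clone. All 5 groups derive from 6DT1 cells, and EV and Scr are labelled wildtype. Regions at *Smarcd1* itself were not analysed here.

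Epithelial cells hold to their neighbours through E-cadherin, the product of *Cdh1*, and the adhesion molecule Epcam, and they fill their cytoplasm with keratins. Krt8 pairs with Krt18 in the filaments of simple epithelium, and Krt19 is another keratin of luminal mammary cells. Cells that pass through the epithelial to mesenchymal transition make the filament protein vimentin (*Vim*) and the matrix protein fibronectin (*Fn1*), while factors of the Snail and Zeb families bind E-box sequences in promoters such as that of *Cdh1* and silence epithelial genes. Tumor cell lines often carry both programs at the same time.

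The promoters of 4 of the 7 genes were matched by symbol in a RefSeq table of the build GRCm38.p6, from 250 bases before to 50 bases after the gene start. They are shown to set the promoter without a listed region (*Epcam*) beside those of 3 genes with listed regions. *Epcam* lies at chr17:87635729-87636028 on the plus strand, *Krt8* at chr15:102004293-102004592 on the minus strand, *Krt18* at chr15:102027966-102028265 on the plus strand and *Vim* at chr2:13574061-13574360 on the plus strand, and each is written 5′ to 3′ with E-boxes (CANNTG) in capitals.
Epcam: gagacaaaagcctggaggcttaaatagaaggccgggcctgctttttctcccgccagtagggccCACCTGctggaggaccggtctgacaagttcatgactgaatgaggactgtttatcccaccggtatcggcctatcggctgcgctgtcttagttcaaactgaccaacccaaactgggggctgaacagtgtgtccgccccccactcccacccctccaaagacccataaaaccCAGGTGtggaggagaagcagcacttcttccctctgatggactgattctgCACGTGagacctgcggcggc
Krt8: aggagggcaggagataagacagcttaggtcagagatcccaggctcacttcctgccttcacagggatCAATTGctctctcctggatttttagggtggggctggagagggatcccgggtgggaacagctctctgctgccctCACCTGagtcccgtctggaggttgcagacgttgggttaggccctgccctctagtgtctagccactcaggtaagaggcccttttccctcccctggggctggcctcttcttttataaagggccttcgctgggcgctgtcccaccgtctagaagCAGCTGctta
Krt18: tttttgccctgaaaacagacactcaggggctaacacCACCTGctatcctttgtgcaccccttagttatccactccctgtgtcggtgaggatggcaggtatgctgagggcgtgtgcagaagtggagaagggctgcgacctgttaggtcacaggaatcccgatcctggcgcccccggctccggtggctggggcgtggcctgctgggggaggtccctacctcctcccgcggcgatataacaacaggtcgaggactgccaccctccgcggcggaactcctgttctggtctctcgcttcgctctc
Vim: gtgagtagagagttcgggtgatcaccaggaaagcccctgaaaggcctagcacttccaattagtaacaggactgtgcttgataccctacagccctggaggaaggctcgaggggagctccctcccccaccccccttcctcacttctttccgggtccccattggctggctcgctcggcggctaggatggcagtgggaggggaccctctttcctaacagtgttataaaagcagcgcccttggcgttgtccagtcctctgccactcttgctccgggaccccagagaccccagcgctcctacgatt
The *Epcam* window held 3 E-boxes, the *Krt8* window 3, the *Krt18* window 1 and the *Vim* window 0. Of 32851 promoter windows of that length in the table, 72.3% held at least 1. The E-box form bound by Snail and Zeb factors (CAGGTG, read on both strands and a subset of the E-boxes) occurred 2 times in *Epcam*, 1 time each in *Krt8* and *Krt18* and 0 times in *Vim*, and 20.2% of all windows held it. The letters of the TATA box (TATAAA, both strands) occurred once in *Vim* and as 2 overlapping matches on opposite strands in *Krt8*, with 13.6% of all windows holding them. The GC box (GGGCGG, both strands) occurred once in *Epcam* (35.7% of all windows), and the AP-1 motif (TGANTCA, both strands) was in none of the 4 windows (7.81% of all windows). These matches are letters in a window and were not tied to binding or to the counts below. Because the regions are given in mm39, the windows were not laid over them.

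Counts in the regions differed greatly between the genes. In the KD table, summed counts over the 15 libraries ranged from 33588 to 59583 per library for *Vim*, from 4589 to 9248 for *Krt18*, from 3769 to 7103 for *Krt8*, from 295 to 725 for *Fn1* and from 110 to 252 for *Krt19*. Per kilobase of listed region, the mean was 50347 counts for *Vim*, 11673 for *Krt18*, 8476 for *Krt8*, 435.2 for *Krt19* and 241.1 for *Fn1*, against a median of 359.3 over all regions of the KD table. The OE table gave 57837, 11599, 11090, 399.8 and 170.0 counts per kilobase in the same order of genes, against a median of 483.1. In counts per kilobase the mesenchymal genes thus stood at both ends, with *Vim* highest and *Fn1* lowest in both tables. Total counts per library ran from 16176518 to 23703753 in the KD table and from 22668622 to 31225956 in the OE table, and the *Vim* regions alone took 0.205% to 0.279% and 0.204% to 0.295% of them.

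**Figure D1:**
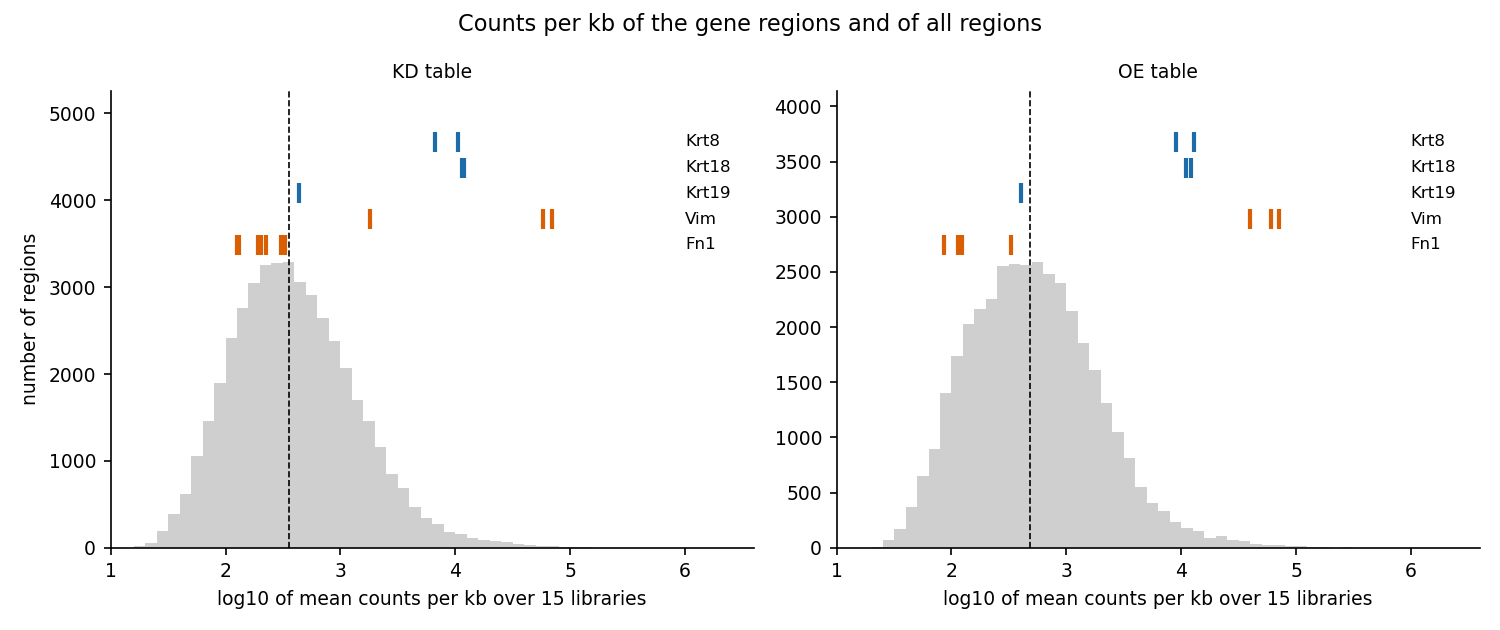
Histogram (grey) of the mean counts per kilobase of all regions on a log10 scale, for the KD table and the OE table, with the epithelial (blue) and mesenchymal (orange) gene regions as vertical marks above it and the median as a dashed line. *Vim*, *Krt8* and *Krt18* regions lie far to the right of the median, apart from 1 *Vim* region of the KD table at 1812 counts per kilobase, and all *Fn1* regions lie to its left.

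The *Vim* signal lay in a few short regions. At chr2:13579210-13579716 the KD table held 58467 counts per kilobase, and this region ranked 40th of 44598 by total. Near the far end of the gene, chr2:13587362-13587599 held 69349 counts per kilobase and ranked 100th. Between them chr2:13580825-13581002 held only 1812 counts per kilobase. The OE table listed the 2 outer regions with nearly the same ends and, in place of the weak one, chr2:13583255-13583535 with 39653 counts per kilobase. *Krt8* had regions at chr15:101905200-101905490 and chr15:101912415-101912738, and *Krt18*, its neighbour on the chromosome, at chr15:101936736-101937006 and chr15:101939097-101939412. All 4 were above at least 97.6% of the regions of the KD table in counts per kilobase. *Krt19* had a single region, chr11:100031757-100032188, above 56.0% of regions. *Fn1* had 7 short regions in the KD table, spread from 71624963 to 71692297 on chromosome 1 and each above 18.2% to 47.2% of regions, and 4 in the OE table. Of the members, 10 regions of each table overlapped a region of the other.

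*Cdh1* and *Epcam*, the surface markers of the epithelial state, had no listed region. The nearest regions of the KD table ended 28027 bp before and began 16370 bp after the *Cdh1* interval, and 188836 bp before and 20038 bp after the *Epcam* interval. The OE table placed them 28024 bp and 16411 bp from *Cdh1* and 189541 bp and 20046 bp from *Epcam*. An absent region says only that no region was listed there in these tables, and counts outside listed regions were not analysed here. Of the epithelial genes of the labelled mammary cancer cells, *Krt8* and *Krt18* thus had high counts, *Krt19* lay near the median of all regions, and neither surface marker had a listed region.

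The spacing of the member regions was set against that of exons, as a description. With 1 shift per gene and no use of coordinates, the exon spacing of an NCBIM37 annotation could be laid so that 25 of the 27 regions of both tables were covered by exons over at least 0.5 of their length. For *Krt8* and *Krt18* these were 4 of 4 each, for *Krt19* 2 of 2, for *Vim* 5 of 6 and for *Fn1* 10 of 11, while exons make up 12.3% (*Fn1*) to 36.7% (*Krt18*) of these genes. The shift was chosen to cover the most regions, and 10 places are counted in both tables, so *Krt8* and *Krt18* have few distinct places and *Krt19* a single one, for which the counts say little. At the median over all shifts tried, the number covered was 0 for each of the 5 genes. Many of those shifts set the gene partly or wholly off its regions, so this 0 is no baseline for the best shift. At the best shift, the 2 outer *Vim* regions fell on the first and the last of its 8 exon blocks and the 2 *Krt8* regions on the first and the last of its 9. The labels of these libraries describe RNA extraction and the submitters' processing notes name the aligner STAR, whereas the methods describe tagmentation and Bowtie2. Whether RNA reads contributed to the counts was not tested.

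**Figure D2:**
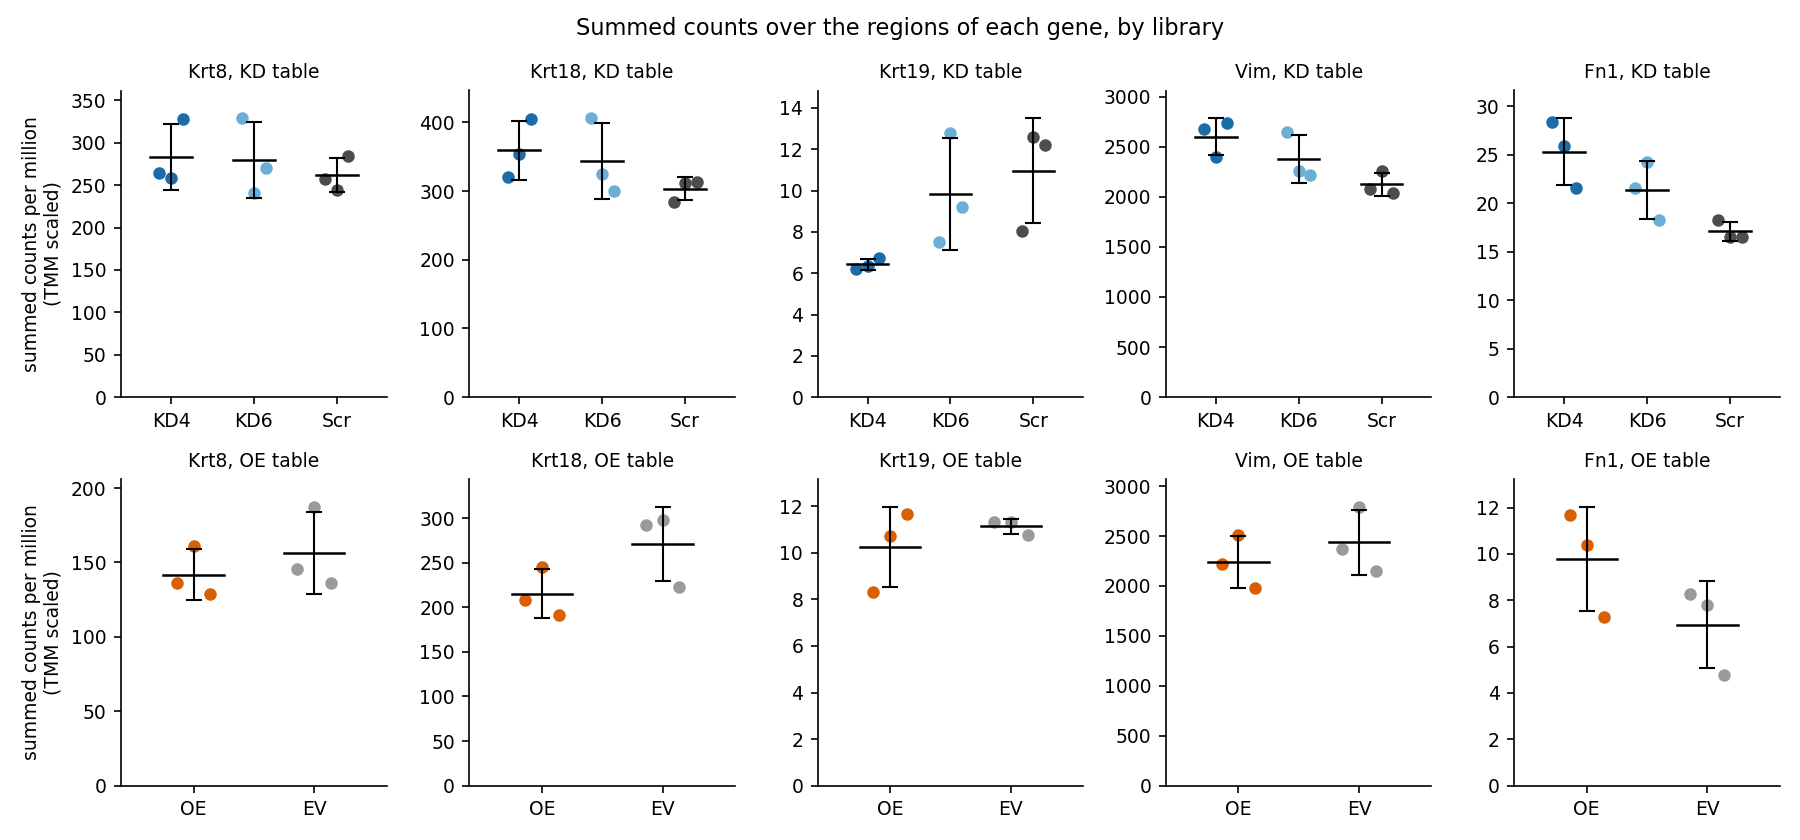
Summed CPM (counts relative to the library total, scaled by TMM) over the regions of each gene, with 1 point per library and black bars for the group mean and SD (n = 3). The upper row shows KD4, KD6 and Scr over the KD table and the lower row OE and EV over the OE table, each axis starting at 0. *Vim* is the highest of the genes in both rows, and groups overlap in most panels.

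To see whether knockdown of *Smarcd1* went with a different balance of these genes, the mean of KD4 and KD6 was set against Scr. *Fn1*, *Vim*, *Krt18* and *Krt8* averaged higher in KD than in Scr and *Krt19* averaged lower, but none of the 5 gene sums passed a false discovery rate (FDR) of 0.05 by edgeR, where 0.271% of all rows tested did. DESeq2 called 0 as well, and 2 of the 5 had an unadjusted p under 0.05 by edgeR (8.25% of all rows). Of all rows, 0.255% passed as higher and 0.0158% as lower in KD. Levels are CPM (counts relative to the library total) scaled by TMM, a factor per library that edgeR sets from the bulk of the regions. Where the counts reflect accessibility, fewer cells with an open region and less opening per cell cannot be told apart in these bulk libraries. Whether RNA reads contributed to the levels compared here was not tested. The sources describe separate passages for each replicate only in a protocol for RNA. The p-values therefore reflect variation among the libraries at hand, part of which can be technical.

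*Fn1*, which encodes fibronectin, had summed levels of 28.4, 25.9 and 21.6 CPM in KD4, 21.6, 24.3 and 18.2 CPM in KD6, and 18.2, 16.5 and 16.5 CPM in Scr. Only KD6 replicate 3 lay within the range of the Scr libraries. The log2 fold change was 0.45 (standard error 0.13, 95% confidence interval 0.17 to 0.72, edgeR FDR = 0.26, unadjusted p = 0.00324 by the same model). All 7 *Fn1* regions had a log2 fold change above 0, from 0.25 to 1.16, against a median of -0.01 over all regions. The region with the smallest p of all members was chr1:71663236-71663447, with 2.25, 1.42 and 1.24 CPM in KD4, 1.30, 1.42 and 1.43 CPM in KD6, and 0.742, 0.625 and 0.641 CPM in Scr. Every KD library was above every Scr library there, as in 2.42% of all regions tested (1.46% had every KD library below). It held 12 counts in each Scr library and 24 to 40 in the KD libraries. Its log2 fold change was 1.16 (standard error 0.29, edgeR FDR = 0.136), at the lowest counts per kilobase of the members. The *Fn1* region with the highest level, chr1:71624963-71625431, had a log2 fold change of 0.47 (95% confidence interval 0.13 to 0.81, edgeR FDR = 0.398).

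*Vim* had 2676, 2394 and 2733 CPM in KD4, 2649, 2260 and 2215 CPM in KD6, and 2077, 2256 and 2043 CPM in Scr. Here too KD6 replicate 3 alone lay under the highest Scr library, and the log2 fold change was 0.23 (standard error 0.11, 95% confidence interval -0.01 to 0.46, edgeR FDR = 0.637). The outer regions of *Vim* had log2 fold changes of 0.24 and 0.22, and the weak inner one -0.07. By a two-sided exact permutation test of the mean log2 CPM, *Fn1* and *Vim* each had p = 0.0476 between the 6 KD and 3 Scr libraries, where the smallest possible p is 0.0119. Of 20 such tests, over 5 genes and 4 comparisons, these 2 were under 0.05, without adjustment, but the 15 tests of 3 against 3 libraries could not go below 0.1. The pooled test takes the libraries of KD4 and KD6 as exchangeable, although they come from different lines. By the same permutation test for each line against Scr, *Fn1* and *Vim* each had p = 0.1 in KD4 and p = 0.2 in KD6.

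Among the keratins, *Krt8* had 264.2, 258.1 and 327.7 CPM in KD4, 328.8, 240.2 and 269.8 CPM in KD6, and 256.7, 244.5 and 283.9 CPM in Scr, and the groups overlapped widely (log2 fold change 0.11, 95% confidence interval -0.16 to 0.37, edgeR FDR = 0.878). Its partner *Krt18* had 320.2, 353.2 and 404.8 CPM in KD4, 405.7, 325.0 and 300.4 CPM in KD6, and 283.8, 312.0 and 313.3 CPM in Scr. The *Krt18* log2 fold change was 0.22 (95% confidence interval -0.04 to 0.47, edgeR FDR = 0.687). *Krt19* had 6.19, 6.34 and 6.74 CPM in KD4, 7.50, 12.8 and 9.20 CPM in KD6, and 8.04, 12.6 and 12.2 CPM in Scr. Its log2 fold change was -0.47 (95% confidence interval -0.84 to -0.10, edgeR FDR = 0.461), with KD4 below all Scr libraries and KD6 spread over their range. Across the 15 member regions 13 had a log2 fold change above 0, against a median of -0.01 over all regions. These regions come from 5 genes in the same libraries, 7 of them from *Fn1*, and are not independent. By edgeR 0 passed FDR 0.05 (0.271% of all regions, 0.255% higher and 0.0158% lower), and by DESeq2 0 passed. An unadjusted p under 0.05 by edgeR was found at 4 (8.25% of all regions). Separated groups were found at 2 of the 15, the *Fn1* region named above and chr15:101939097-101939412 of *Krt18*, both higher in KD. Of all regions tested, 2.42% had every KD library above every Scr library and 1.46% had every one below. The *Krt18* region, the one with the highest level in that gene, had 175.8, 191.8 and 226.5 CPM in KD4, 215.2, 173.3 and 175.9 CPM in KD6, and 162.2, 164.9 and 167.7 CPM in Scr (log2 fold change 0.23, edgeR FDR = 0.647).

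**Figure D3:**
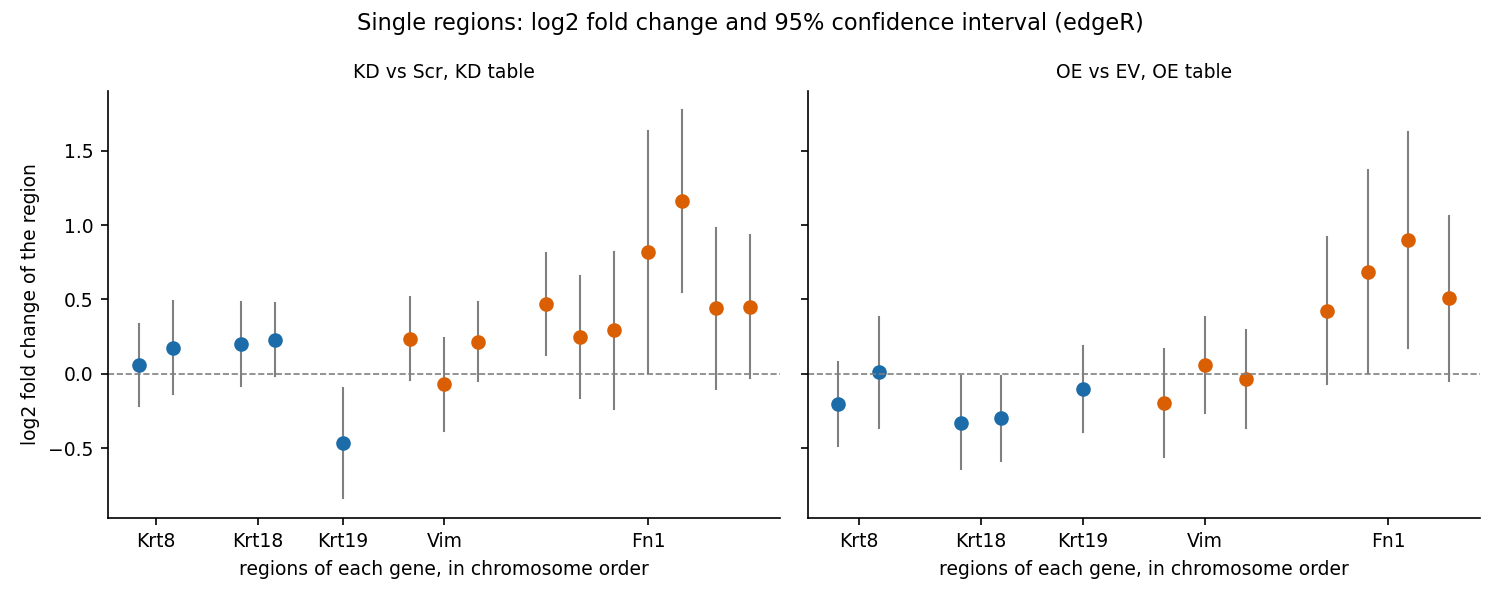
Log2 fold change of each listed region (points) with its 95% confidence interval (lines), for KD against Scr over the KD table and OE against EV over the OE table, grouped by gene and in chromosome order (blue epithelial, orange mesenchymal). The 7 and 4 *Fn1* regions lie above 0 in both panels, and keratin and *Vim* regions lie between -0.47 and 0.24.

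The knockdown lines were then taken apart. Against Scr, KD4 alone had groups that did not overlap for 4 of the 5 gene sums: *Fn1*, *Krt18* and *Vim* above Scr (8.88% of all regions lay above) and *Krt19* below (7.34%). For KD6 0 of the 5 gene sums were separated from Scr (5.92% of all regions lay above and 4.59% below). The log2 fold changes against Scr were 0.57 in KD4 and 0.32 in KD6 for *Fn1*, 0.29 and 0.16 for *Vim*, 0.25 and 0.18 for *Krt18*, 0.12 and 0.10 for *Krt8* and -0.77 and -0.16 for *Krt19*, always KD4 first. Both lines share the Scr libraries. None of these 10 passed FDR 0.05 by edgeR (0.576% of all rows did for KD4 and 0.149% for KD6), and the smallest FDR were 0.112 for *Fn1* and 0.128 for *Krt19*, both in KD4. With an unadjusted p under 0.05 there were 3 in KD4 (9.74% of all rows) and 1 in KD6 (5.87%). DESeq2 was not run for the single lines.

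Set against each other, KD6 and KD4 differed most at *Krt19*, with KD6 at 7.50 CPM or more and KD4 at 6.74 CPM or less, a log2 fold change of 0.61 of KD6 over KD4 (standard error 0.21, 95% confidence interval 0.17 to 1.05, edgeR FDR = 0.448). It was 0.38 without KD6 replicate 2. The groups did not overlap for *Krt19* alone among the gene sums, as for 5.93% of all regions that lay higher in KD6 (5.80% lay lower). None of the 5 gene sums passed FDR 0.05 by edgeR (0.224% of all rows did, 0.151% higher and 0.0723% lower) or DESeq2, and 1 had an unadjusted p under 0.05 (6.37% of all rows). *Fn1* had a log2 fold change of -0.24 (95% confidence interval -0.55 to 0.07), *Vim* -0.13 (-0.40 to 0.14), *Krt18* -0.06 (-0.36 to 0.23) and *Krt8* -0.02 (-0.32 to 0.28). Of the 15 regions, 0 passed by edgeR or DESeq2 and 2 had an unadjusted p under 0.05 (6.37% of all regions). The groups did not overlap at the *Krt19* region and at chr1:71624963-71625431 of *Fn1*, which was lower in KD6.

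In OE cells compared with EV, *Fn1* again averaged higher and the other 4 genes averaged lower, and none passed the threshold. Of the 5 gene sums 0 passed FDR 0.05 by edgeR, where 0.0106% of all rows did, and DESeq2 called 0. An unadjusted p under 0.05 was reached by 2 of them (8.57% of all rows). *Fn1* had 11.7, 10.4 and 7.29 CPM in OE and 8.28, 7.78 and 4.79 CPM in EV over the 4 regions of the OE table. The third library was the lowest in both groups, and the OE libraries reached into the range of EV. The log2 fold change was 0.52 (standard error 0.19, 95% confidence interval 0.11 to 0.92, edgeR FDR = 0.569). It was 0.31 without EV replicate 3, and 0.23 when the same libraries were counted over the 7 *Fn1* regions of the KD table. All 4 regions had a log2 fold change above 0, from 0.43 to 0.90. At chr1:71663236-71663407, the smallest in p, OE had 1.17, 1.29 and 1.26 CPM and EV 1.12, 0.491 and 0.435 CPM (log2 fold change 0.90, edgeR FDR = 0.569). This region overlaps the one with the smallest p in KD against Scr, in other libraries. It held only 31, 39 and 31 counts in OE and 28, 14 and 12 counts in EV.

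*Krt18* had 208.6, 245.2 and 191.4 CPM in OE and 292.1, 297.4 and 222.6 CPM in EV. Only EV replicate 3 lay within the range of OE. Its log2 fold change was -0.31 (standard error 0.15, 95% confidence interval -0.62 to -0.0019, edgeR FDR = 0.583). For *Krt8* the levels were 135.9, 160.9 and 128.9 CPM in OE and 145.3, 187.4 and 136.0 CPM in EV (log2 fold change -0.12, 95% confidence interval -0.42 to 0.18). *Krt19* had 8.33, 10.7 and 11.7 CPM in OE and 11.3, 11.3 and 10.8 CPM in EV (log2 fold change -0.10, 95% confidence interval -0.39 to 0.19). *Vim* had 2221, 2507 and 1983 CPM in OE and 2367, 2792 and 2154 CPM in EV (log2 fold change -0.11, 95% confidence interval -0.49 to 0.28). For these 3 genes the values of OE and EV overlapped and each interval included 0. Among the 12 regions 0 passed FDR 0.05 by edgeR or DESeq2, and 4 had an unadjusted p under 0.05 (8.57% of all regions). At 2, both of *Fn1*, every OE library lay above every EV library (6.98% of all regions, with 7.33% the other way). The median log2 fold change was -0.01 over the 12 and 0.02 over all regions.

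**Figure D4:**
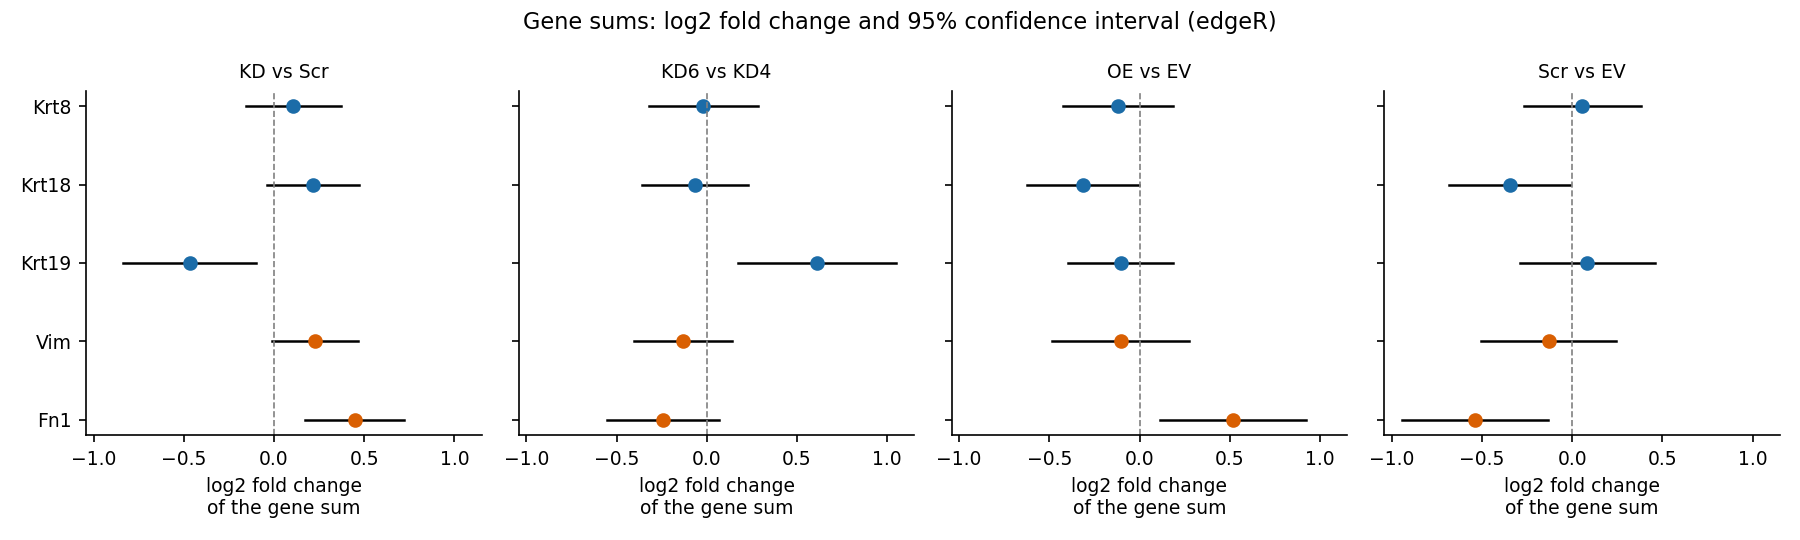
Log2 fold change of each gene sum (points, blue epithelial, orange mesenchymal) with its 95% confidence interval (lines) from edgeR, in 4 comparisons. *Fn1* lies at 0.45 in KD against Scr, 0.52 in OE against EV and -0.54 in Scr against EV, *Krt19* at -0.47 in KD against Scr and 0.61 in KD6 against KD4, and no point passed FDR 0.05.

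Scr and EV are the control lines of the knockdown and overexpression arms. Scr had lower *Fn1* levels on average than EV over the KD table, with 18.2, 16.5 and 16.5 CPM in Scr and 34.5, 24.5 and 16.2 CPM in EV. The EV libraries spread over a wider range than any other group, and the log2 fold change was -0.54 (standard error 0.19, 95% confidence interval -0.94 to -0.13, edgeR FDR = 0.106). It was -0.24 without EV replicate 1 and -0.79 without EV replicate 3, which then passed with an edgeR FDR of 0.0143. *Krt18* had 283.8, 312.0 and 313.3 CPM in Scr and 440.7, 413.2 and 314.3 CPM in EV, narrowly without overlap and lower in Scr, as were 13.2% of all regions (13.2% were higher). Its log2 fold change was -0.35 (95% confidence interval -0.68 to -0.01, edgeR FDR = 0.2). The lower level lay mainly in the region chr15:101936736-101937006 (log2 fold change -0.52, edgeR FDR = 0.0788), against -0.19 in the other *Krt18* region, a contrast that was not tested. *Vim*, *Krt8* and *Krt19* had log2 fold changes of -0.13, 0.06 and 0.08, all with intervals that included 0. None of the 5 gene sums passed FDR 0.05 by edgeR, where 4.40% of all rows did (2.19% higher and 2.21% lower), or by DESeq2, and 2 had an unadjusted p under 0.05 (22.8% of all rows). Among the 15 regions 0 passed by edgeR (4.38% of all regions, 2.19% higher and 2.20% lower) or DESeq2, and 3 had an unadjusted p under 0.05 (22.8% of all regions).

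Across all 5 groups of the KD table, no gene passed the test for any difference at FDR 0.05 by edgeR, where 4.62% of all rows did, and 2 of 5 had an unadjusted p under 0.05 (20.5% of all rows). This test was not run in DESeq2. The FDR was 0.0927 for *Fn1*, 0.11 for *Krt19*, 0.425 for *Krt18*, 0.589 for *Vim* and 0.623 for *Krt8*. *Fn1* passed over the regions of the OE table (FDR = 0.0497) and without EV replicate 1 (0.038) or EV replicate 3 (0.0166). With the replicate number as a block, *Fn1* (0.0257) and *Krt19* (0.041) passed, though the numbers were not shown to pair the libraries. From low to high, mean *Fn1* levels were 17.1 ± 1.00 CPM in Scr, 21.4 ± 3.03 in KD6, 25.1 ± 9.13 in EV, 25.3 ± 3.46 in KD4 and 29.2 ± 4.64 in OE (SD, n = 3 each). OE was thus highest and Scr lowest for this gene. Orders across all 5 groups mix *Smarcd1* change with vector, selection agent and set of lines, which cannot be told apart. For *Vim* they were 2125 ± 115 CPM in Scr, 2250 ± 233 in OE, 2348 ± 301 in EV, 2375 ± 238 in KD6 and 2601 ± 182 in KD4. Scr was again lowest, with KD4 highest. *Krt8* ran from 235.0 ± 27.2 CPM in OE through 254.2 ± 40.4 in EV, 261.7 ± 20.2 in Scr and 279.6 ± 45.1 in KD6 to 283.3 ± 38.5 in KD4. The order for *Krt18* was 303.0 ± 16.7 CPM in Scr, 322.2 ± 39.3 in OE, 343.7 ± 55.1 in KD6, 359.4 ± 42.6 in KD4 and 389.4 ± 66.5 in EV. Neighbours in each of these 4 orders overlapped. *Krt19* had 6.42 ± 0.281 CPM in KD4, apart from the next group, then 9.79 ± 2.42 in OE, 9.83 ± 2.697 in KD6, 10.5 ± 0.666 in EV and 10.96 ± 2.54 in Scr, which overlapped in turn. The highest library exceeded the lowest 2.12-fold for *Fn1*, 2.06-fold for *Krt19*, 1.55-fold for *Krt18* and *Krt8* and 1.35-fold for *Vim*, the most even of the genes over the 15 libraries.

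Ratios inside a library do not depend on the scaling between libraries and are given as a description. *Vim* held 4.58, 3.92 and 3.73 times the summed counts of *Krt8* and *Krt18* in KD4, 3.61, 3.998 and 3.88 times in KD6, and 3.84, 4.05 and 3.42 times in Scr, so the values overlapped, with the highest in KD4 and the lowest in Scr. Over the OE table the ratio was 6.27 ± 0.153 in OE and 5.73 ± 0.299 in EV (SD, n = 3 each), with the lowest OE library at 6.17 and the highest EV library at 6.01. The level of the ratio depends on which *Vim* regions a table lists and is not comparable between tables. *Krt18* held 1.27 ± 0.0847 times the counts of its partner *Krt8* in KD4, 1.23 ± 0.12 in KD6 and 1.16 ± 0.0993 in Scr, which overlapped. In the OE table it held 1.51 ± 0.0263 times in OE and 1.74 ± 0.231 times in EV, with all OE libraries at 1.54 or less and all EV libraries at 1.59 or more. Scr and EV, over the KD table, stood at 1.16 ± 0.0993 and 1.54 ± 0.199 without overlap. The ratios were not tested, and how many other ratios separate was not counted. Of single regions in OE vs EV, 6.98% had every OE library above every EV library and 7.33% had every one below. For Scr vs EV these shares were 13.2% and 13.2%.

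**Figure D5:**
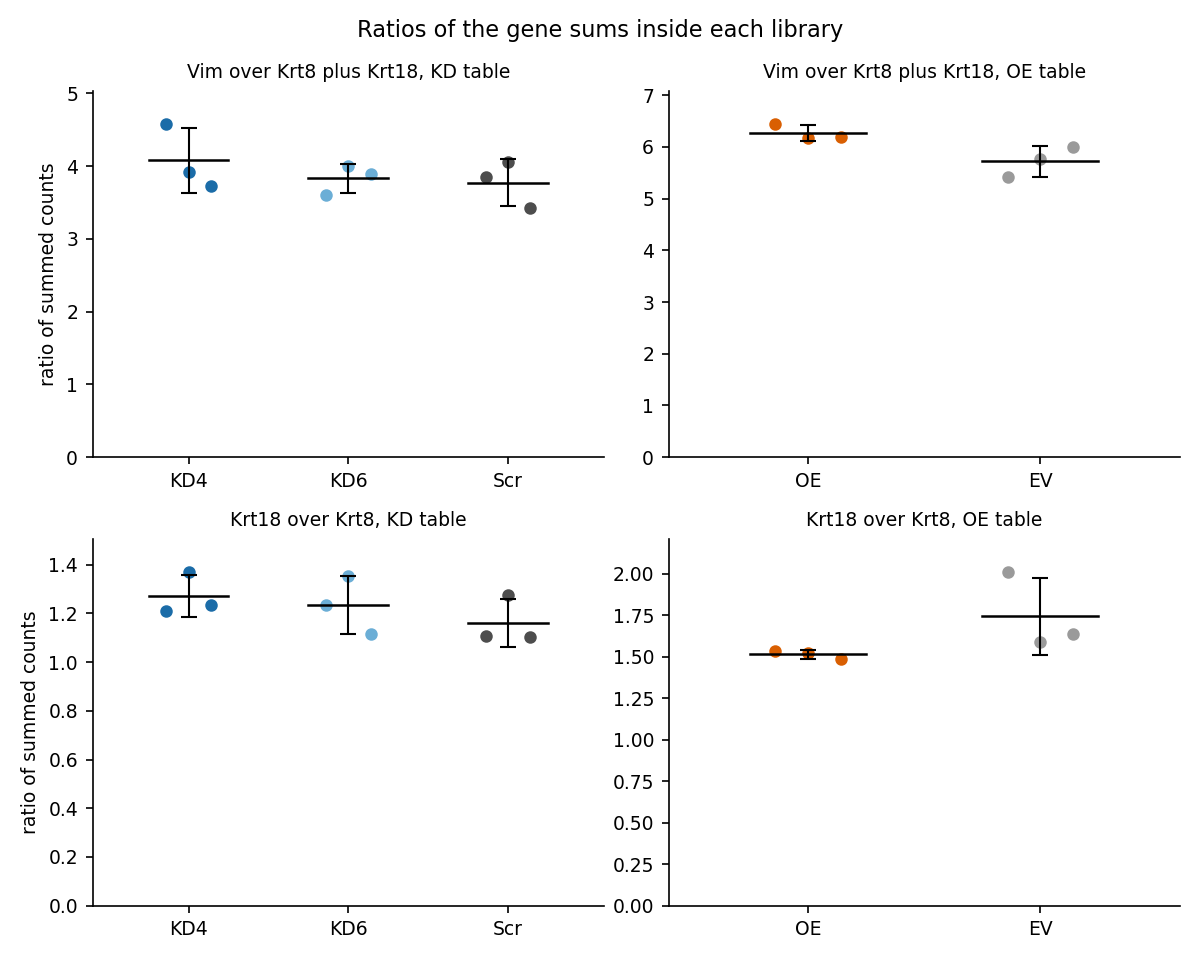
Ratio of summed counts inside each library, with 1 point per library and black bars for the group mean and SD (n = 3), for *Vim* over *Krt8* plus *Krt18* (upper row) and *Krt18* over *Krt8* (lower row), with KD4, KD6 and Scr over the KD table on the left and OE and EV over the OE table on the right. The *Vim* ratio averages 6.27 in OE and 5.73 in EV, and the *Krt18* ratio 1.51 in OE and 1.74 in EV.

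For each gene, 1 region elsewhere followed its level over the 15 libraries most closely, out of 44428 regions of the KD table. This was chr6:100207311-100208209 for *Fn1* (Pearson's r of log2 CPM 0.90), chr4:130059547-130059918 for *Krt18* (0.92), chr1:44861461-44861935 for *Krt19* (0.88), chr7:23056820-23057374 for *Krt8* (0.91) and chr3:123087259-123087454 for *Vim* (0.93). These are the highest values of a large search over the same 15 libraries, and no gene was assigned to the regions.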

How the data were processed

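The deposited values were expected counts per region, not normalized, made by the authors for 1 common list of regions per comparison, in mm39. According to the methods, the authors used Bowtie2 for alignment and MACS for peak calling, both inside Partek Flow. STAR 2.7.8a appears in the submitters' processing notes. The sources used here do not say how reads were assigned to regions. Of the values, 95.1% (KD table) and 95.0% (OE table) were whole numbers, and the counts were rounded before testing, where whole-number counts had been assumed. Each table has 15 further columns that match no sample, which were not used.

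For the gene sums, the regions of each interval were replaced by 1 row, and all rows were fitted in edgeR 4.0.16 (R 4.3.3) by its quasi-likelihood test with TMM, the low-count filter filterByExpr and a Benjamini-Hochberg FDR of 0.05 over the table. KD4, KD6 and Scr were fitted together, OE with EV alone in the OE table, Scr with EV alone and all 5 groups in the KD table. Single regions were tested in the table as listed. All 15 and 12 member regions passed the filter. Confidence intervals come from the fitted standard error. DESeq2 1.42.0 was an alternative, and single values were compared by exact permutation tests in scipy 1.17.1. Replicates differed by at least 3.57 times the variance of sampling noise, so no library was counted a second time.

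Conditions and replicate numbers came from the labels. The 7 genes, their intervals and all lists were chosen with earlier results of these data known. Named were all 7 genes, in each the region with the highest level, and per comparison the region with the smallest p. Other epithelial and mesenchymal genes and cell type markers need an mm39 annotation and were not analysed here, nor was the level of *Smarcd1*. Alternatives were RLE, upper quartile or no TMM scaling, a DESeq2 fit, no filter, at least 50 counts in 3 libraries, FDR 0.1, a replicate block, each library left out, all 15 libraries, the regions of the other table and a fit without mitochondrial and the 20 largest regions. All member regions lie wholly inside their intervals, so that restriction changed no sum.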

Additional observations from a re-analysis of the deposited data

How the results depend on the processing

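In KD vs Scr, KD6 vs KD4 and OE vs EV, 0 gene sums and 0 regions passed FDR 0.05 under every alternative run. In Scr vs EV, 1 region passed FDR 0.1, and leaving out 1 library gave 0 to 1 gene sums and 0 to 3 regions past FDR 0.05. The 1 and 3 came without EV replicate 3 and were *Fn1* and regions of *Krt18* and *Fn1*. Across the 5 groups, leaving out 1 library gave 0 to 1 and the regions of the OE table gave 1, in each case *Fn1*. With the replicate number as a block, 2 passed, *Fn1* (FDR = 0.0257) and *Krt19* (FDR = 0.041), and the block changed no other call. In the labels, libraries of different groups share only a number. Correlations of same-numbered libraries ran from -0.20 to 0.27 between KD4 and Scr and from -0.03 to 0.26 between OE and EV in the KD table. Of 3 numbers each, 1 and 2 correlated best with their own number. In the OE table the correlations ran from 0.05 to 0.24 between Scr and EV, where 3 did so. Between KD6 and KD4 they ran from -0.34 to 0.06 there, where 1 did so. These values do not settle whether the numbers pair the libraries. Directions turned only when 1 library was left out: *Krt19* in OE vs EV (-0.20 to 0.018), *Krt8* in OE vs EV (-0.22 to 0.015), *Krt18* in KD6 vs KD4 (-0.20 to 0.030), *Krt8* in KD6 vs KD4 (-0.15 to 0.10), *Krt19* in Scr vs EV (-0.050 to 0.26) and *Krt8* in Scr vs EV (-0.068 to 0.18). The cause was not tested. With 1 library left out, *Fn1* ranged from 0.39 to 0.50 in KD vs Scr and from 0.31 to 0.69 in OE vs EV. *Krt19* then ranged from 0.38 to 0.78 in KD6 vs KD4. Over the other alternatives the ranges were 0.44 to 0.56, 0.23 to 0.62 and 0.53 to 0.61, in the same order. Without TMM the median log2 fold change of all regions was 0.12 in OE vs EV and 0.12 in Scr vs EV, against 0.02 with it, and *Vim* and *Krt19* in OE vs EV were then at -0.0094 and -0.0063. Scr vs EV then had 1075 higher and 436 lower regions, against 958 and 963 (1256 and 651 by upper quartile). The sums of *Fn1* and *Krt19* rest on 110 to 725 counts per library in the KD table, which limits their precision. In the OE table they rest on 103 to 315 counts for *Fn1* and 160 to 332 for *Krt19*.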
